A study of Mus musculus with 7 samples.

Results

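S100a4, S100a6, S100a10, S100a11, Anxa1, Anxa2, Lgals1, Lgals3, Ahnak and Crip1 are genes of small calcium-binding S100 proteins, annexins, galectins and a pair of their associates that are known for higher expression in effector and memory T cells than in naive ones. They were taken by gene symbol, and all 10 of 10 were found among the 19589 genes of the table. The samples were splenocytes of C57BL/6 mice sorted for CD4, with 4 wild-type libraries (WT1 to WT4) and 3 libraries labelled RT (RT1 to RT3), which the series text names Tet2-/-G17VRHOA. This genotype combines loss of Tet2, an enzyme that oxidises methylated cytosine in DNA, with a mutant form of the small GTPase RHOA. The series design counts each library as a mouse. Their age, the promoter or cell type that drives the RHOA form and the deleted part of Tet2 were not given in the sources used here, and the labels name no agent for either group. Levels are RPKM, reads per kilobase of gene and per 1000000 reads of the library.

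S100 proteins are small dimers that change shape on binding calcium and then dock onto partner proteins. Annexins bind membrane phospholipids when calcium rises, and several form fixed complexes with an S100 dimer, the best known being Anxa2 with S100a10, which also binds the giant scaffold protein Ahnak. Galectins bind galactose-containing sugar chains on surface glycoproteins and can cross-link receptors of T cells. In CD4+ T cells, the RNAs of many of these genes are low in naive cells and rise after antigen encounter.

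The libraries differed in depth by more than 100-fold, which sets how these genes can be read. The totals behind the RPKM values, worked out from their steps, were 18566233 to 21800352 reads in WT1, WT2 and RT1, here called deep, and 105763 to 121659 reads in WT3, WT4, RT2 and RT3, here called shallow. Each set held both genotypes, but the deep set held a single RT library. WT3 and WT4 were nearly as alike as counting allows (chi-square per degree of freedom 1.13 over 2323 genes, against 2.98 over 2144 genes for RT2 and RT3). For WT1 and WT2, at far greater depth, it was 33.9 over 11474 genes. The series design counts WT3 and WT4 as 2 of 4 wild-type mice, and they were kept as 2 samples. Tet2 stood at 6.32, 4.68, 2.86 and 2.79 RPKM across the wild-type libraries and at 5.03, 0.803 and 0 RPKM across the RT ones (limma difference -0.94 ± 0.48, adjusted p = 0.459). The library labelled RT1 was thus within the wild-type range, and as the deleted part is unknown, the level over the whole gene does not check the labels. Markers of CD4+ T cells were present in every library, with Cd4 at 122 to 463 RPKM and none of 8 markers at 0. Markers of other cells were unequal. A list of 7 B cell genes summed to 1375 and 1528 reads per 1000000 recovered reads (RPM) in WT3 and WT4 and to 157 to 371 RPM in the other 5 libraries. The 5 plasma cell genes reached 1625 and 1715 RPM in WT3 and WT4, against 148 to 584 RPM elsewhere. Monocyte and macrophage genes, 7 in the table, summed to 3213 RPM in RT1, against 626 to 889 RPM in the other deep libraries, and to 1317 and 1200 RPM in WT3 and WT4 against 430 and 591 RPM in RT2 and RT3. Dendritic cell genes summed to 481 and 487 RPM in WT3 and WT4 and to 76.3 to 108 RPM elsewhere. Erythroid and platelet genes summed to 942 and 825 RPM in WT3 and WT4 and to 54.5 to 294 RPM elsewhere. Of the CD8+ T and NK cell genes, Nkg7 reached 414 and 198 RPKM in RT2 and RT3. Cd8a was at 0 in every RT library, against 128, 47, 1 and 2 reads across WT1 to WT4. Cd8b1 stood at 1.74, 7.30, 0 and 5.54 RPKM across WT1 to WT4 and at 1.18, 0 and 5.54 RPKM across RT1 to RT3. The CD4+ T cell markers summed to 4214 to 4582 RPM in the deep libraries, to 5336 and 5100 RPM in WT3 and WT4, and to 9985 and 8752 RPM in RT2 and RT3. In bulk RNA, fewer cells of a type and less RNA per cell cannot be told apart.

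**Figure D1:**
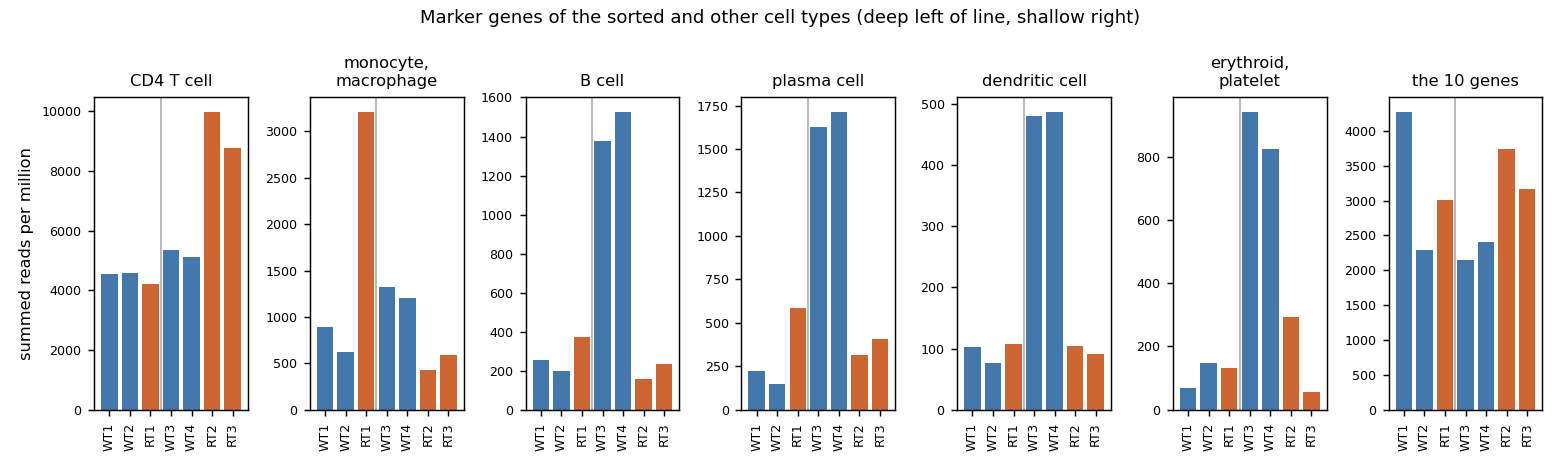
Summed reads per 1000000 recovered reads (y axes, each starting at 0) of marker lists in each library, with wild type in blue and RT in orange and the deep libraries left of the grey line. CD4 T cell markers are highest in RT2 and RT3 (9985 and 8752 RPM), monocyte and macrophage markers in RT1 (3213 RPM), and B cell and plasma cell markers in WT3 and WT4. The last panel sums the 10 genes themselves.

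The comparison asks how far the 10 genes differ in RT from wild type. With library set as a term, limma on log2(RPKM + 1) called 0 of the 9 genes tested in either direction at an adjusted p under 0.05, against 26 of all 9605 genes tested (0.271% called, 0.219% higher and 0.0521% lower). Anxa1 did not pass the filter of 1 RPKM in 3 libraries and was not tested. In no gene of the 9 did every RT library lie above, or every RT library below, all wild-type ones, as they did in 4.47% and 4.57% of all genes. At an unadjusted limma p under 0.05 in either direction, 2 of the 9 passed, S100a11 and Anxa2, both higher. In either direction 1249 of all 9605 genes passed too. The median difference over the 9 was 0.56 on the log2(RPKM + 1) scale, beside -0.03 over all genes tested, with 7 estimates above 0 and 2, Ahnak and Crip1, below. Within the library sets the genes split. In the shallow libraries both RT libraries lay above both wild-type ones for 6 of the 9 genes, as 19.4% of all genes did, and below them for 1, as 24.1% did. In the deep libraries RT1 lay above both wild-type libraries for 4 of the 9 genes, as 39.6% of all genes did, and below them for 4, as 34.2% did. For 3 genes, S100a11, Anxa2 and Lgals1, RT lay above wild type in both sets (10.2% of all genes). For another 3, S100a4, S100a6 and S100a10, RT lay above in the shallow and below in the deep libraries (4.63% of all genes). Summed over the 10 genes, the share of recovered reads was 0.428%, 0.229%, 0.214% and 0.241% across WT1 to WT4 and 0.301%, 0.374% and 0.316% across RT1 to RT3, and the groups overlapped.

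**Figure D2:**
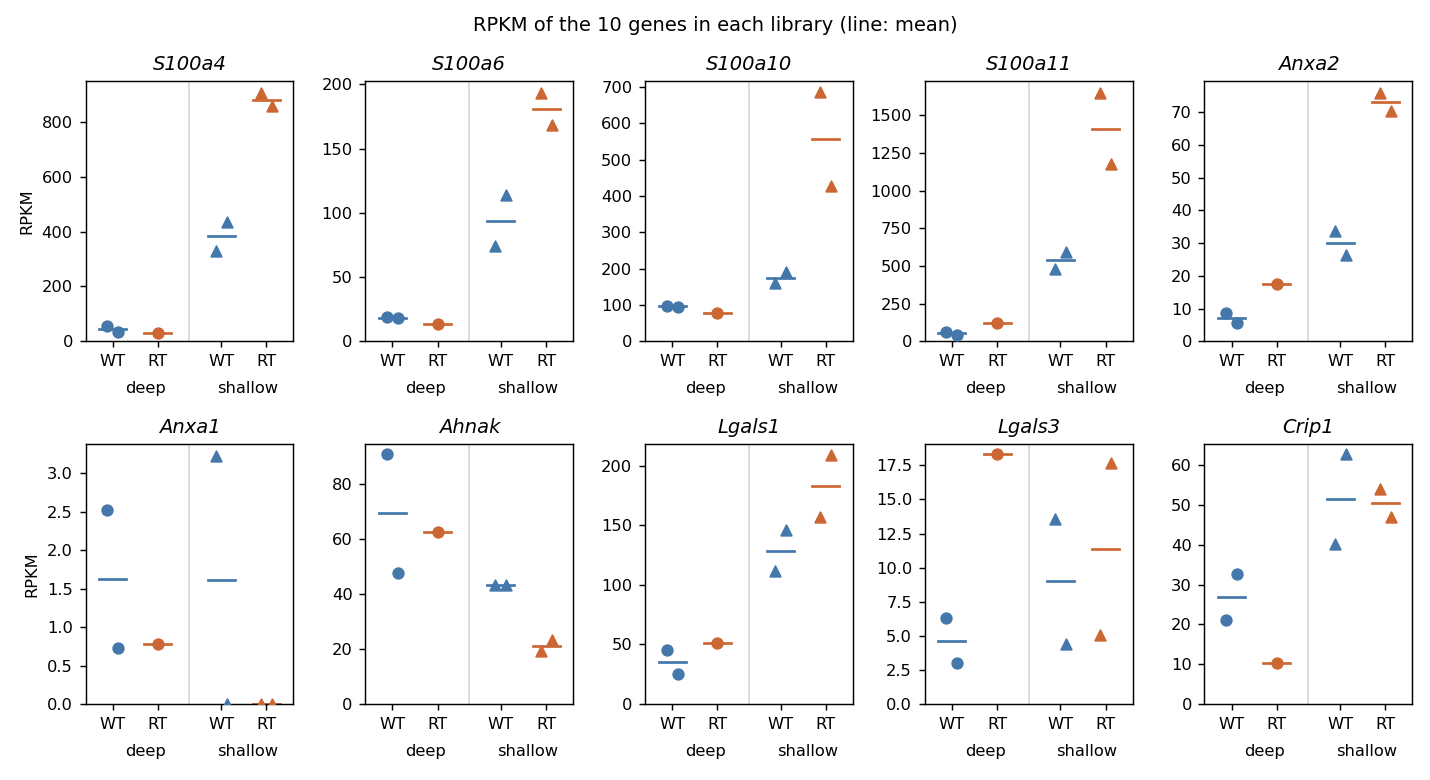
RPKM (y axes, each starting at 0) of the 10 genes in every library, split by genotype and by library set, with lines at the means of each set. S100a11 and Anxa2 are higher in RT in both sets, S100a4, S100a6 and S100a10 only in the shallow libraries of this plot, and Ahnak lies lower in RT2 and RT3 (19.4 and 23.1 RPKM) than in any wild-type library.

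S100a4 encodes a protein that binds non-muscle myosin and promotes cell motility. The gene (ENSMUSG00000001020.8) lies on chromosome 3 at 90603771 to 90606045 (mm10, GENCODE M21) on the plus strand, where it overlaps the gene model Gm42674 on the same strand, so its reads may be shared. It stood at 54.0, 32.5, 331 and 436 RPKM across WT1 to WT4 and at 31.1, 907 and 859 RPKM across RT1 to RT3. RT2 and RT3 were thus the highest of all libraries, and RT1 was the lowest. The reads behind these values were 585, 380, 23 and 31 in wild type and 396, 56 and 61 in RT. In the shallow libraries the summed reads gave a ratio of RT to wild type of 2.29 (95% exact interval 1.65 to 3.23). In the deep libraries the ratio was 0.727 (0.645 to 0.818). There RT1, at 31.1 RPKM, lay close to WT2 at 32.5, and WT1 at 54.0 was further from both. Such intervals, here and below, cover counting error only and not differences between mice. Over all 7 libraries the difference was 0.56 ± 0.37 (log2(RPKM + 1), SE; limma adjusted p = 0.564). The wild-type mean was 213 ± 201 RPKM (SD, n = 4). The RT mean was 599 ± 492 RPKM (SD, n = 3), and both mix the library sets.

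S100a6, the calcyclin gene, lies 6836 bases downstream of S100a4 on the same strand (chromosome 3, 90612882 to 90624181, ENSMUSG00000001025.8). Its levels were 18.6, 17.7, 73.8 and 114 RPKM across WT1 to WT4 and 13.5, 194 and 168 RPKM across RT1 to RT3. The order of libraries was that of S100a4 at the top, with RT2 and RT3 highest and RT1 lowest. The ratio of summed reads was 1.91 (1.21 to 3.07) in the shallow and 0.744 (0.660 to 0.837) in the deep libraries. The difference over all libraries was 0.42 ± 0.32 (limma adjusted p = 0.612). S100a5 itself was listed at 0 in every library, and so was S100a7a. S100a13, another S100 gene, stood at 14.6, 12.4, 58.8 and 23.0 RPKM across WT1 to WT4 and at 11.1, 79.3 and 57.5 RPKM across RT1 to RT3, with a difference of 0.41 (limma adjusted p = 0.677). The neutrophil genes S100a8 and S100a9 were at 0 to 15.3 and 2.39 to 31.5 RPKM, and S100a8 was at 0 in 4 of the 7 libraries.

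S100a10 encodes the partner subunit of the Anxa2 complex and differs from other S100 proteins in that it does not need calcium to dock. It lies in a second group of S100 genes on chromosome 3 (93555080 to 93564643, ENSMUSG00000041959.14). It stood at 98.2, 93.9, 160 and 190 RPKM across WT1 to WT4 and at 76.5, 687 and 427 RPKM across RT1 to RT3. Its shallow ratio of summed reads, 3.13 (2.27 to 4.39, from 151 reads against 51), was the highest of the 10 genes, while the deep ratio was 0.798 (0.756 to 0.841). The difference over all libraries was 0.85 ± 0.42 (limma adjusted p = 0.440). Without RT1 it was 1.63 and called (limma adjusted p = 0.0378), in a fit that called 109 higher and 211 lower of 9029 genes. That fit holds RT in the shallow set only, and the shallow libraries alone gave the same 1.63 uncalled (limma adjusted p = 0.113).

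The opposite sides on which the deep and shallow sets placed these 3 genes were tested with an interaction of genotype and set. The shallow difference exceeded the deep one by 1.63 ± 0.46 for S100a4, 1.37 ± 0.42 for S100a6 and 1.96 ± 0.43 for S100a10 on the log2(RPKM + 1) scale. Their unadjusted p-values from limma were 0.0152, 0.0197 and 0.00502, and the limma adjusted p-values over 9605 genes 0.324, 0.361 and 0.183, so none passed. Over all genes 79 passed (0.822% called, 0.0104% with the higher and 0.812% with the lower shallow difference), and of the 9 genes tested here 0 did, with limma adjusted p from 0.183 to 0.988.

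S100a11, whose protein is a known partner of the Anxa1 protein, is the other member of the second group on chromosome 3 (93520488 to 93526287, ENSMUSG00000027907.4), 28792 bases upstream of S100a10. It stood at 60.4, 44.1, 477 and 595 RPKM across WT1 to WT4 and at 119, 1647 and 1174 RPKM across RT1 to RT3. RT exceeded wild type within each set, and no other gene of the 10 reached as many RPKM in the shallow libraries. The ratio of summed reads was 2.30 (2.12 to 2.50) for the deep libraries, and for the shallow ones it was 2.60 (1.94 to 3.51). The difference was 1.31 ± 0.22 (limma adjusted p = 0.0848), rank 58 by p among 9605 genes. The sets did not differ detectably in it (interaction 0.19 ± 0.43, limma adjusted p = 0.939). A processed pseudogene, S100a11-ps, is annotated elsewhere in the genome, and a split of reads with it is uncertain.

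Anxa2, the phospholipid-binding subunit that pairs with S100a10, lies on chromosome 9 at 69453620 to 69491795 (ENSMUSG00000032231.14). It stood at 8.73, 5.45, 33.8 and 26.4 RPKM across WT1 to WT4 and at 17.5, 76.0 and 70.5 RPKM across RT1 to RT3. As for S100a11, RT was above wild type in each set. The ratio of summed reads was 2.49 (2.30 to 2.70) for the deep set, and for the shallow set it was 2.43 (1.52 to 3.97). The difference was 1.25 ± 0.23 (limma adjusted p = 0.0923), with an interaction of 0.04 ± 0.47 (limma adjusted p = 0.988). An antisense transcript, Gm16144, is annotated within Anxa2, and whether the counting used strand was not stated, so their reads cannot be told apart. The level of S100a10 relative to Anxa2, both per length, was 11.2 and 17.2 in WT1 and WT2 and 4.37 in RT1. It was 4.72 and 7.18 in WT3 and WT4 and 9.03 and 6.06 in RT2 and RT3, so the 2 subunits did not keep a fixed RNA ratio.

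S100a11 and Anxa2, uncalled by limma on log2(RPKM + 1), were called when the whole reads behind the values were tested. That test weights the deep libraries more. Limma voom on these reads, with library set as a term, tested 8 of the 10 genes and called 2 higher and 1 lower, against 10.2% higher and 8.78% lower of 5796 genes. S100a11 was at 1.23 ± 0.20 (log2, SE; limma voom adjusted p = 0.00512) and Anxa2 at 1.31 ± 0.25 (limma voom adjusted p = 0.00926). In the shallow libraries alone each was called too, with limma voom adjusted p of 0.000569 for S100a11 and 0.0289 for Anxa2. That fit called 217 higher and 308 lower of 5796 genes. It also called S100a10 and S100a4 higher and Ahnak lower (limma voom adjusted p = 0.000101, 0.00714 and 0.00359). Its spread rests in part on WT3 and WT4, which were nearly as alike as counting allows. Limma on log2(RPKM + 1) in the same libraries called neither S100a11 nor Anxa2 (limma adjusted p = 0.115 and 0.218). The deep libraries alone hold a single RT library, so the voom differences of 1.21 and 1.35 there carry no spread between RT mice. Without RT1 the voom fit called no gene of 5796 (474 at an unadjusted p under 0.05), and S100a11 stood at 1.31 and Anxa2 at 1.22 there (limma voom adjusted p = 0.416 and 0.724). Over all 7 libraries voom left S100a4, S100a6 and S100a10 uncalled at 0.04 ± 0.35, -0.22 ± 0.24 and 0.10 ± 0.32, which turns the direction of S100a6.

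Both findings sit beside unequal cell markers. In RT1, where S100a11 and Anxa2 were above the deep wild-type libraries, monocyte and macrophage genes were also above them (Lyz2 at 223 RPKM against 96.2 and 42.7, and C1qa at 185 against 27.2 and 30.3). In the recovered reads 4 of 5 such genes tested were called higher, C1qa, C1qb, Adgre1 and Csf1r, beside 10.2% of all genes. Limma on log2(RPKM + 1) called 0 of 6, with C1qa and C1qb at 0.57 and 0.77 and Adgre1 and Csf1r at -1.21 and -0.47. In RT2 and RT3 the summed list was below WT3 and WT4, while S100a11 and Anxa2 were above. Cd14 of that list went the other way, at 0 in WT3 and WT4 and at 31.4 RPKM in RT3. Neutrophil genes other than S100a8 and S100a9 were at 0 in RT2 and RT3. In RT2 and RT3 the CD4+ T cell markers were higher, with an RPKM sum 1.87 times that of WT3 and WT4, against 0.985 times in RT1 relative to WT1 and WT2. Cd5 of that list was an exception, at 264 and 207 RPKM in WT3 and WT4 and at 110 and 215 RPKM in RT2 and RT3, and it was lower in the recovered reads at -0.96 ± 0.18 (limma voom adjusted p = 0.00851). Divided by this sum, the shallow ratio of RT to wild type was 1.40 for S100a11, 1.31 for Anxa2, 1.68 for S100a10, 1.24 for S100a4 and 1.03 for S100a6. For Lgals1, Lgals3, Crip1 and Ahnak it was 0.781, 0.721, 0.528 and 0.269. RT lay above wild type without overlap for S100a11, Anxa2, S100a10 and S100a4, and below it without overlap for Crip1 and Ahnak. The groups overlapped for S100a6, Lgals1 and Lgals3. The share of all genes without overlap after this division was not worked out. The part of the cell mixture in these differences was not tested beyond this.

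Because S100a11 and Anxa2 lay above wild type in each set, the 250 bases upstream of their starts are shown, with those of S100a4 for contrast (RefSeq, GRCm38.p6, which is the same build as mm10; plus strand, 5′ to 3′). Capitals mark matches on either strand to any of 4 motifs: AP-1 (TGANTCA), ETS (CCGGAA), KLF (CCACCC) and RUNX (TGTGGT). No matches of different motifs overlapped in these windows.
S100a11 (chr3:93520246-93520495): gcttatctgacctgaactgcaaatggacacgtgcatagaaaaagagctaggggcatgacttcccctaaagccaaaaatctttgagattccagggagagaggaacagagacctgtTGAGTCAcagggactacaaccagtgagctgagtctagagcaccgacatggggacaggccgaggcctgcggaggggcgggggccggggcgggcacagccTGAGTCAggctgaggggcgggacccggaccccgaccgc
Anxa2 (chr9:69453433-69453682): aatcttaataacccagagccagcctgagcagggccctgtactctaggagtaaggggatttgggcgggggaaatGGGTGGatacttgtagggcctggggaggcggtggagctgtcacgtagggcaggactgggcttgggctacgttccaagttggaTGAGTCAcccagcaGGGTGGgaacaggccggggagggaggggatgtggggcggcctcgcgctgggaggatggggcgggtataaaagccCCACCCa
S100a4 (chr3:90603520-90603769): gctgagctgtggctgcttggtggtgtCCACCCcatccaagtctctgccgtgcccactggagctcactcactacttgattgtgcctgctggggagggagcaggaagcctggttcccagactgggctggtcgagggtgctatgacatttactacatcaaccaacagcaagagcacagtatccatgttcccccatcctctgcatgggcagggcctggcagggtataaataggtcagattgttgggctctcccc
The AP-1 letters occurred 2 times upstream of S100a11 and 1 time upstream of Anxa2. They occurred in none of the other 6 upstream windows that could be matched, S100a4, S100a6, Anxa1, Lgals3, Ahnak and Crip1, so 2 of 8 windows held them, beside 6.75% of 32851 windows of the same length over all genes. The KLF letters stood in 4 of the 8 windows (28.1% of all windows), including those of S100a4 and Anxa2. The RUNX letters stood in 1 (14%), S100a6, and the ETS letters in 1 (12%), Anxa1. A match of letters is not evidence of binding, and S100a10 and Lgals1 had no entry in the sequence table.

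Anxa1, a glucocorticoid-induced annexin whose protein is a ligand of formyl peptide receptors, was nearly undetected (chromosome 19, 20373428 to 20390944, minus strand, ENSMUSG00000024659.15). It stood at 2.52, 0.727, 3.22 and 0 RPKM across WT1 to WT4 and at 0.774, 0 and 0 RPKM across RT1 to RT3. The shallow values rest on 1 read in WT3 and on 0 in the other 3 libraries, where 3 reads, the limit that a count of 0 allows, would be 27.3 to 31.5 RPM. In the deep libraries it had 122 and 38 reads in wild type and 44 in RT1, within the wild-type range. A long noncoding gene, 1500015L24Rik, overlaps it on the other strand. Of its receptor genes, Fpr2 was at 0 in WT3, WT4, RT2 and RT3. Fpr1 was at 0 in WT3, RT2 and RT3 and at 6.21 RPKM, from 1 read, in WT4. In the deep libraries Fpr1 stood at 0.163 and 3.85 RPKM in WT1 and WT2 and at 7.93 RPKM in RT1.

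Ahnak encodes a giant scaffold that takes part in calcium entry of T cells. It has the longest transcript of the group, 19938 exonic bases (chromosome 19, 8989284 to 9076914, ENSMUSG00000069833.13). It stood at 90.9, 47.4, 43.1 and 43.0 RPKM across WT1 to WT4 and at 62.3, 19.4 and 23.1 RPKM across RT1 to RT3. RT1 lay between WT1 and WT2, and RT2 and RT3 lay below every wild-type library. From 90 reads against 192, the shallow ratio was 0.496 (0.382 to 0.640). In the deep libraries it was 0.911 (0.898 to 0.925), well inside the gap between WT1 and WT2. The difference was -0.63 ± 0.30 (limma adjusted p = 0.434). Ahnak was thus on the other side of wild type from its binding partners S100a10 and Anxa2 in the shallow libraries.

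Lgals1 encodes a dimeric galectin known to restrain T cell responses. It stood at 45.6, 25.5, 112 and 146 RPKM across WT1 to WT4 and at 51.1, 157 and 209 RPKM across RT1 to RT3 (chromosome 15, 78926725 to 78930465, ENSMUSG00000068220.6). RT lay above wild type in each set, and the interval of the shallow ratio included 1. In the deep set RT1, at 51.1 RPKM, lay close to WT1 at 45.6, and WT2 at 25.5 was further from both. The ratio of summed reads was 1.45 (1.33 to 1.59) for the deep set, and for the shallow set it was 1.44 (0.858 to 2.43). The difference was 0.53 ± 0.25 (limma adjusted p = 0.426). Divided by the CD4+ T cell markers the shallow ratio was 0.781 and the groups overlapped. Of its pseudogenes, Lgals1-ps1 and Lgals1-ps2 are annotated, so its reads may be split.

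Lgals3, the chimera-type galectin that macrophages make in quantity, was highest in RT1. It stood at 6.29, 2.98, 13.6 and 4.43 RPKM across WT1 to WT4 and at 18.3, 5.09 and 17.7 RPKM across RT1 to RT3 (chromosome 14, 47367751 to 47386160, ENSMUSG00000050335.17). The shallow values are 1 to 4 reads each, with a ratio of 1.32 (0.285 to 6.66), so no difference was detectable at that depth. In the deep libraries 742 reads in RT1 against 217 and 111 gave a ratio of 4.01 (3.51 to 4.58), and this rests on 1 RT library. The same library held 3213 RPM of monocyte and macrophage genes, against 889 and 626 RPM in WT1 and WT2, and the part of those cells in Lgals3 was not tested. The difference over all libraries was 0.89 ± 0.62 (limma adjusted p = 0.577), and it was 0.26 without RT1 and 1.46 without RT2 (limma adjusted p = 0.881 and 0.443).

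Crip1, a small LIM-domain zinc protein, differed in the deep libraries and not detectably in the shallow ones. It stood at 21.0, 32.7, 40.1 and 62.8 RPKM across WT1 to WT4 and at 10.2, 54.1 and 47.1 RPKM across RT1 to RT3 (chromosome 12, 113146316 to 113153879, ENSMUSG00000006360.11). RT1 was the lowest of all libraries, and RT2 and RT3 lay between WT3 and WT4. The deep ratio was 0.379 (0.342 to 0.419) and the shallow ratio 0.976 (0.537 to 1.77). Divided by the CD4+ T cell markers, whose sum was 1.87 times as high in RT2 and RT3 as in WT3 and WT4, the shallow ratio was 0.528. RT then lay below wild type, and the share of all genes that did so was not worked out. The difference was -0.51 ± 0.34 (limma adjusted p = 0.572) in the main test. In the recovered reads it was -1.26 ± 0.25 and called (limma voom adjusted p = 0.0117), and without RT1 it was -0.04 (limma voom adjusted p = 0.998), so this call rests on RT1.

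**Figure D3:**
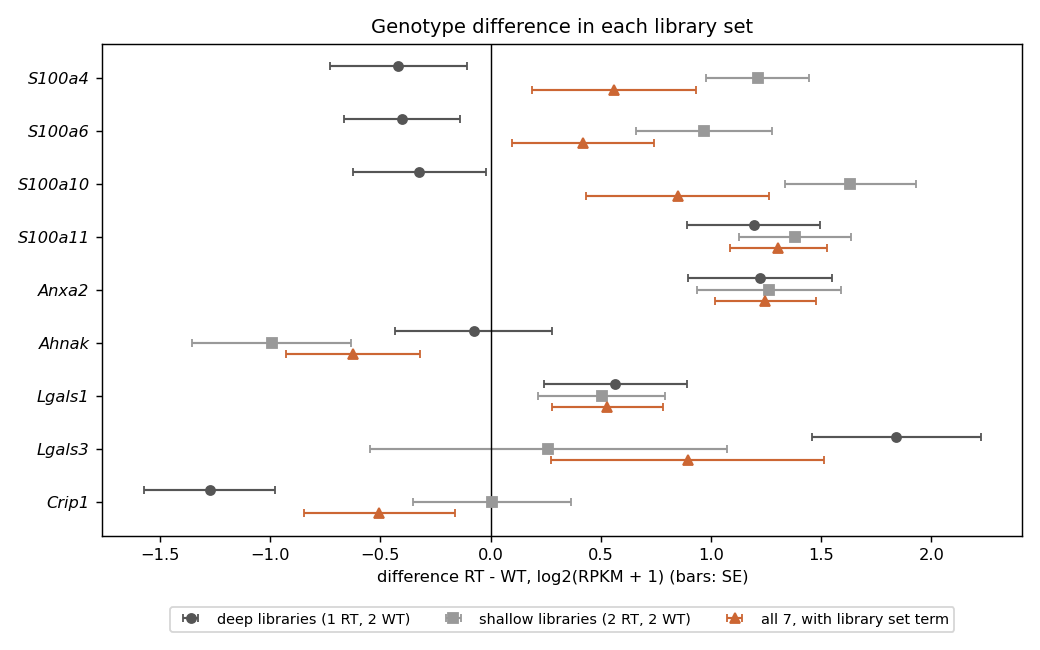
Difference between RT and wild type on the log2(RPKM + 1) scale (x axis, with standard errors) for the 9 genes tested, in the deep libraries (1 RT, 2 WT), in the shallow libraries (2 RT, 2 WT) and in all 7 with a library set term. S100a11 and Anxa2 lie near 1.2 to 1.4 in both sets, while S100a4, S100a6 and S100a10 fall on opposite sides of 0.

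The level of these genes also depended on the library set within wild type. From the deep to the shallow wild-type libraries S100a11 was 10.3 times as high, S100a4 8.88 times, S100a6 5.18 times, Anxa2 4.25 times and Lgals1 3.62 times. Lgals3, Crip1 and S100a10 were 1.94, 1.92 and 1.82 times as high, and Ahnak was 0.622 times as high. Short genes as a class also had higher ratios than long ones. Over genes with a mean of 10 RPKM or more in both wild-type sets, this ratio had a median of 3.04 for 44 genes under 700 exonic bases and of 1.40 for 675 genes of 6000 bases or more. S100a11 and S100a4, at 511 and 584 bases, were above the upper quartile of the first class (5.86), and Ahnak was below the lower quartile of the second (1.08). S100a6 and Anxa2, at 1367 and 3731 bases, were also above the upper quartiles for their lengths (3.70 and 2.33), though Anxa2 had a deep wild-type mean of 7.09 RPKM. Lgals1, S100a10 and Crip1 were within the quartiles for theirs. The part of gene length in these ratios was not tested. A mean of RPKM over a genotype therefore says little for these genes, and values were compared within sets.

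**Figure D4:**
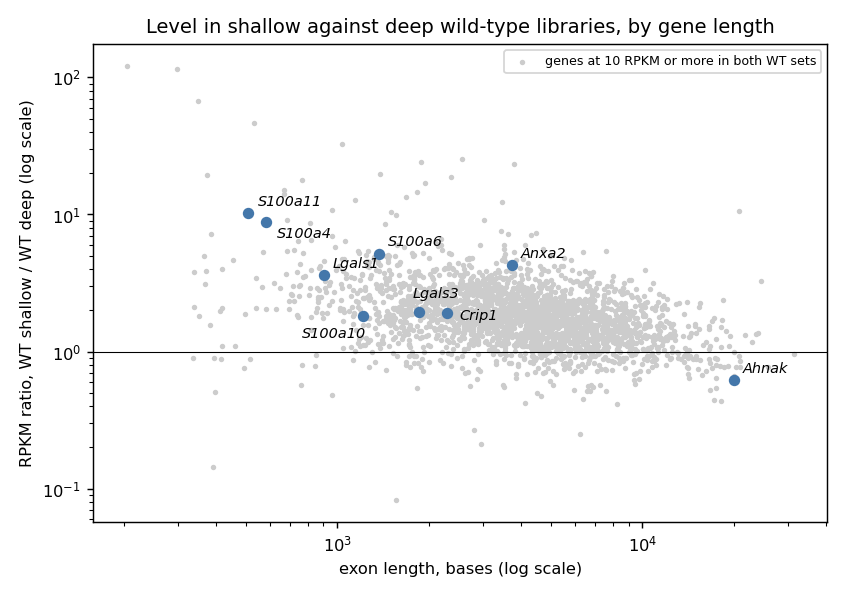
Ratio of mean RPKM in the shallow to the deep wild-type libraries (y axis, log scale) against exon length (x axis, log scale), with the 9 genes in blue and other genes with a mean of 10 RPKM or more in both sets in grey. S100a11 and S100a4 are 10.3 and 8.88 times as high in the shallow libraries, and Ahnak 0.622 times.

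Relatives of the 10 genes gave calls in both directions. Of 35 other S100, annexin, galectin, Ahnak and Crip genes, 32 were in the table, 10 of them at 0 in every library, and 16 were tested. Limma called 0 in either direction (median 0.11, beside -0.03 over all genes), and 1 higher and 2 lower of 9 in the recovered reads, where 10.2% of all genes were higher and 8.78% lower. Anxa6, an abundant annexin of lymphocytes, stood at 93.7, 122, 258 and 182 RPKM across WT1 to WT4 and at 33.5, 74.2 and 160 RPKM across RT1 to RT3, lower in RT within each set, and opposite to Anxa2. Its difference was -1.25 ± 0.32 (limma adjusted p = 0.176), and in the recovered reads it fell by 1.53 ± 0.22 (log2, SE; limma voom adjusted p = 0.00297). Anxa5 was at 0.03 and Anxa11 at -0.10, both uncalled. Lgals9, a tandem-repeat galectin, was at -0.93 ± 0.51 (limma adjusted p = 0.481) and was called lower in the recovered reads at -0.82 ± 0.18 (limma voom adjusted p = 0.0186). Lgals3bp, a secreted galectin-binding glycoprotein, was called higher there at 1.68 ± 0.24 (limma voom adjusted p = 0.00303), with 68.5 RPKM in RT1 against 16.4 and 21.7 in WT1 and WT2, and with 36.5 and 63.5 RPKM in RT2 and RT3 overlapping 35.4 and 54.9 in WT3 and WT4.

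Binding partners and glycan enzymes of these proteins were tested as a list of 14 genes, of which 10 passed the filter. Limma called 0, and the recovered reads gave 1 higher and 1 lower of 9, near the shares of all genes (10.2% higher and 8.78% lower). Lag3, an inhibitory receptor that Lgals3 protein can bind, stood at 22.3, 6.04, 39.9 and 74.1 RPKM across WT1 to WT4 and at 89.9, 399 and 366 RPKM across RT1 to RT3, above every wild-type library (limma difference 2.80 ± 0.43, adjusted p = 0.0691; limma voom 2.91 ± 0.50, adjusted p = 0.00679). Cd7, a surface glycoprotein that Lgals1 protein binds, stood at 5.32, 11.7, 29.7 and 43.5 RPKM across WT1 to WT4 and at 0.567, 8.35 and 0 RPKM across RT1 to RT3. It was at -3.16 ± 0.78 (limma adjusted p = 0.162) and was lower in the recovered reads at -3.67 ± 0.68 (limma voom adjusted p = 0.00852). The other glycoprotein counter-receptors of Lgals1, Ptprc and Spn, were at 0.04 and 0.12, uncalled, and the glycan enzymes Mgat5 and St6gal1 at 0.05 and -1.01, uncalled.

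Other genes of antigen-experienced T cells, 24 in number and all tested, gave 0 limma calls, with a median of 0.25. In the recovered reads 3 of 21 were higher and 6 lower, beside 10.2% and 8.78% of all genes. Capg, an actin-capping protein, was higher in RT in both sets, at 23.3, 18.1, 59.8 and 65.0 RPKM across WT1 to WT4 and 42.1, 116 and 179 RPKM across RT1 to RT3 (limma difference 1.12 ± 0.22, adjusted p = 0.101; limma voom 1.04 ± 0.19, adjusted p = 0.00852). The other members called higher were Plp2 at 0.94 ± 0.22 and the adhesion receptor Cd44 at 0.95 ± 0.27 (limma voom adjusted p = 0.0204 and 0.0397). Cd44 stood at 38.4 RPKM in RT1, against 20.1 and 14.7 in WT1 and WT2. In RT2 and RT3 it was at 20.9 and 32.8 RPKM, overlapping 26.1 and 37.6 in WT3 and WT4. Its limma difference was 0.30 (limma adjusted p = 0.744). The lowest p-values on the other side belonged to the chemokine receptor Cxcr3 at -1.69 ± 0.23, Ly6c2 at -2.67 ± 0.47 and the actin-binding Lsp1 at -0.80 ± 0.15 (limma voom adjusted p = 0.00233, 0.00704 and 0.00889). Cxcr3 overlapped in the shallow libraries, at 76.5 and 23.7 RPKM in RT2 and RT3 beside 77.7 and 47.5 in WT3 and WT4. The integrin chain Itgb1 and the intermediate filament gene Vim, which are commonly high beside S100a4, were at 0.38 and 0.04 in limma and uncalled. Of 10 actin and small cytoskeletal genes, limma and limma voom each called 0, with medians of 0.06 and -0.13.

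The genes most like the mean profile of the 10, after each library set was centred, were Zfp36l2, Lpxn, Ptpn22, Arf4 and Il2rb, chosen among 2461 genes with a mean of 10 RPKM or more in each set. Their Pearson r over 7 libraries ran from 0.949 to 0.969 and Spearman rho from 0.786 to 0.857. This is a description, since the 7 libraries share their sets and the best of 2461 genes were picked. Ptpn22, a phosphatase that dampens T cell receptor signals, stood at 40.4, 21.3, 110 and 110 RPKM across WT1 to WT4 and at 52.2, 221 and 302 RPKM across RT1 to RT3. Il2rb, an interleukin receptor chain of activated and memory T cells, stood at 80.0, 56.7, 104 and 107 RPKM across WT1 to WT4 and at 87.2, 174 and 219 RPKM across RT1 to RT3.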

How the data were processed

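The authors deposited a table of RPKM values, 1 column per library, with mm10 as the genome build per the submitters' processing notes; the aligner, counter and annotation were not given in the sources used here. RNA of sorted CD4+ splenocytes was made into libraries with a TruSeq kit, per the labels' protocols, and the series design counts 4 and 3 mice.

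Genes reaching 1 RPKM in 3 or more of the 7 libraries were fitted as log2(RPKM + 1) with limma 3.58.1 in R 4.3.3 (trended eBayes; terms for library set and genotype), two-sided, with Benjamini-Hochberg adjustment over all genes and a threshold of 0.05. A log2(RPKM + 1) difference understates the change of low genes. Library totals were worked out from the steps of the RPKM values with GENCODE M21 exon lengths: 78.9% to 83.9% of values under 100 reads were whole within 0.01 reads. Remaining genes took the smallest length that gave whole reads, within 0.003 reads, separately by library set for 804 genes including Lgals1, and 98 genes gave none. Recovered reads were 47.3% to 51.2% of the totals for the deep set, and 87.4% to 90.4% for the shallow set. Those reads were tested with limma voom over genes with 10 or more reads in the shallow libraries. Intervals are exact conditional binomial 95% intervals of a read ratio. Upstream windows came from RefSeq, matched by symbol for 8 of the 10 genes.

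The genes, lists, motifs and the library set term were chosen with earlier results of these data known. Every one of the 10 genes is named. From each list of relatives, partners, antigen-experienced and cytoskeletal genes, up to 3 genes with the lowest p in each direction among those called are named, as well as a fixed set of relatives. Other genes of these lists and single cell markers were named after their values were seen. The scripts were tested on simulated data: for RT against WT over 9786 genes, limma recovered 69 of 100 genes changed 4-fold and 25 of 100 changed 2-fold, with 0 false calls. Over 5742 genes limma voom recovered 99 and 98 of 100, with 21 false calls. The simulation used the same fixed spread for every gene, the same change in both library sets and no difference in cell mixture. The changed genes had a mean of 10 or more reads in the shallow libraries. These recoveries therefore need not hold for the real libraries. Same-numbered WT and RT libraries were compared for pairing, and their deviations from the group means correlated at 0.432, -0.179 and 0.184. After library set was taken out the values were -0.734, 0.391 and -0.137. The group means mix the library sets, and RT1 also correlated with WT2, of the same set, at 0.342. These values therefore cannot show whether the mice were paired, and the main test used no pairing.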

Additional observations from a re-analysis of the deposited data

Results flagged for a closer look

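Ahnak in wild type had a library far from the others: WT1 stood at 90.9 RPKM and WT2 to WT4 at 43.0 to 47.4 RPKM, a gap of 0.9084 of the group's whole range. Chance flags about 1 in 20 groups of 4 samples in this way.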

How the results depend on the processing

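Over all genes, 21 were called higher by limma and 5 lower. Those counts were 4 and 1 without the library set term, 5 and 1 with a pseudocount of 0.5 RPKM, 0 and 0 with no filter on low values (1328 genes had an unadjusted p under 0.05), 370 and 150 in the deep libraries alone, and 14 lower in the shallow libraries alone. They ranged from 0 to 109 higher and 0 to 211 lower when each library was left out in turn. With limma voom on recovered reads they were 594 and 509. With the replicate number as a replicate block they were 0 and 0 (458 genes had an unadjusted p under 0.05), with a smallest limma adjusted p of 0.839. The main fit called 0 of the 10 genes and the block fit 0 of all genes, so the block says nothing on their stability. The causes of these changes were not tested.

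Over all 7 libraries limma called 0 of the 10 genes higher and 0 lower. The counts were 2 higher and 1 lower of 8 tested with limma voom on recovered reads, where 10.2% of all genes were higher and 8.78% lower. They were 0 to 1 higher of 9 tested when a library was left out. The median of 0.56 was -0.076 in the deep libraries alone, where the spread comes from wild type alone because there is 1 RT library. In those libraries S100a11, Anxa2, Lgals3 and Lgals1 were at 1.19, 1.22, 1.84 and 0.57, and Crip1 and Ahnak at -1.27 and -0.08. S100a4, S100a6 and S100a10 reversed there, to -0.42, -0.40 and -0.32, S100a6 was -0.22 with limma voom, and Crip1 was 0.0077 without RT1 and, with the same value, in the shallow set alone. S100a11 ranged from 1.13 to 1.88 and Anxa2 from 0.98 to 1.58 over 16 alternatives.

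Further alternatives were chosen after seeing the data. Averaging WT3 and WT4 as 1 sample gave no call, 0 and 0 (874 genes had an unadjusted p under 0.05). Scaling RPKM to the CD4+ T cell markers moved the median of all genes to -0.40 and gave 6 higher. The median of the 10 genes was 0.03 there, S100a4 was 0.03, Lgals1 0.0077, S100a6 -0.11, S100a11 0.78 and Anxa2 0.75. Limma voom gave 294 higher and 143 lower in the deep libraries alone, again with 1 RT library, with 2 of the 10 genes higher and a median of -0.23, where S100a4, S100a6 and S100a10 were -0.42, -0.44 and -0.35. It gave 217 higher and 308 lower of 5796 genes in the shallow libraries alone, with 4 of the 8 genes tested higher and 1 lower. With each library left out in turn, voom counts over 4921 to 5796 genes ranged from 0 to 851 higher and 0 to 719 lower. Those of the 8 genes tested ranged from 0 to 3 higher and 0 to 2 lower, and their median from -0.19 to 1.02. In these fits S100a4 ranged from -0.20 to 1.15, S100a6 from -0.37 to 0.90, S100a10 from -0.17 to 1.56 and Crip1 from -1.40 to -0.04, beside 0.30 to 1.21, 0.13 to 0.97, 0.48 to 1.63 and -0.79 to 0.0077 for limma on log2(RPKM + 1). The shallow libraries limit what can be seen: 1 read in a gene of 1 kilobase is 8.22 to 9.46 RPKM there.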
